A study of Homo sapiens with 12 samples.

Results

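The miR-378 family was followed across 12 small RNA libraries of DROSHA knockout HCT116 cells, which derive from a human colorectal carcinoma. Members were all mature miRNAs whose name begins miR-378: 8 of the 1286 mature names, on 9 of the 1409 lines of the count table. They are miR-378a-3p (hsa-miR-378a-3p in the table), miR-378a-5p, miR-378c (hsa-miR-378c), miR-378d, miR-378e, miR-378f, miR-378h and miR-378i. All libraries came from DROSHA knockout cells that received 4.5 µg of the plasmid pXC-NLS-DG4 together with a pCK plasmid. That second plasmid carried no insert in 1 group. In the others it carried DROSHA, at 4.5 µg, as the wild-type form, as the mutant m4 or without its belt (belt deletion below). Each of the 4 groups had 3 libraries, numbered as repeats. The labels do not say whether repeats were separate cultures, so p-values measure the spread between these libraries. They give neither the change made in m4 nor the product of the DG4 plasmid, and DROSHA is supplied by transfection and not from its own locus. Whether the knockout line is 1 clone is not stated.

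DROSHA, with its partner DGCR8, cuts primary transcripts at the base of a hairpin, and DICER then removes the loop to leave a duplex of the 5p and 3p strands. One strand is usually kept. miR-378a lies in an intron of PPARGC1B, which codes for the metabolic coactivator PGC-1 beta, and its 3p strand has been studied in energy metabolism, fat cells and muscle. The other members are copies elsewhere in the genome that carry almost the same mature sequence, on either side of their hairpin.

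The mature sequences are shown first because the reading of every value below depends on how little they differ. RefSeq (GRCh38.p14) gave a mature sequence for 6 of the 8 members. Capitals mark bases 2 to 8, the seed that pairs with targets.

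miR-378a-3p: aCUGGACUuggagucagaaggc
miR-378c: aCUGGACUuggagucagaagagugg
miR-378f: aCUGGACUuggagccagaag
miR-378h: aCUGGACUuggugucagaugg
miR-378i: aCUGGACUaggagucagaagg
miR-378a-5p: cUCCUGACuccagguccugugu

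The first 5 share the seed CUGGACU, which 7 of the 2370 mature names in the RefSeq table carry. miR-378d and miR-378e, which have no mature sequence there, are not in that count. Counted from the 5′ end, miR-378c equals miR-378a-3p over the first 20 bases and then differs by G21A and C22G. It ends at base 25, while RNA of 19 to 24 nt was taken for the libraries. A read of 20 bases or fewer from the start of either one is therefore the same sequence. miR-378f differs from miR-378a-3p by U14C, miR-378h by A12U and A19U, and miR-378i by U9A. The miRNAs miR-378b and miR-422a also carry this seed but had no line in the count table, so they could not be analysed.

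The hairpins differ far more than the mature strands, and they place that strand on opposite sides. In the hairpins of miR-378a and miR-378c, the pair that holds nearly all reads, capitals mark the mature strand.

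MIR378A: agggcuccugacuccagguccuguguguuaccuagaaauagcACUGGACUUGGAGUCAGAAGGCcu
MIR378C: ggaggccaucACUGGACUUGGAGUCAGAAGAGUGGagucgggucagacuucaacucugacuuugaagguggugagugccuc

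MIR378A (chromosome 5, 149732825 to 149732890, plus strand of hg38) lies in an intron of PPARGC1B on the same strand, and its mature strand fills bases 43 to 64 of 66, on the 3′ side. MIR378C (chromosome 10, 130962588 to 130962668, minus strand) overlaps no other gene of GENCODE 29, and its mature strand fills bases 11 to 35 of 81, on the 5′ side. RNAfold gave a minimum free energy of -38.5 kcal/mol for MIR378A and -36.7 kcal/mol for MIR378C. Per base this was -0.583 and -0.453 kcal/mol, beside a median of -0.452 over 1562 RefSeq hairpins. MIR378H and MIR378I also carry the strand on the 5′ side, and MIR378F on the 3′ side. MIR378F (chromosome 1, 23929070 to 23929147) overlaps no gene, MIR378H (chromosome 5, 154829458 to 154829540) lies in an intron of FAXDC2 on the other strand, and MIR378I (chromosome 22, 41923222 to 41923297) overlaps an exon of TNFRSF13C. MIR378E (chromosome 5, 170028488 to 170028566) lies in an intron of DOCK2, and MIR378D1 (chromosome 4, 5923275 to 5923328) in an intron of C4orf50. The other hairpin of miR-378d, mir-378d-2, whose line was tested below, was left out of this search. Its position and fold are not given. The free energy per base was -0.304 kcal/mol for MIR378I, -0.293 for MIR378H and -0.286 for MIR378F, all less stable than the median hairpin, and -0.448 for MIR378E.

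After lines of 1 mature name were collapsed, the libraries held 101886 to 332081 reads, with the lowest totals in m4 replicates 1 and 3. Levels below are scaled reads, that is, counts divided by a size factor set from 5 features whose maturation bypasses DROSHA (miR-1226, miR-1224, the miR-320 group, miR-877 and miR-484). With these factors miR-877-5p changed by -0.06 to 0.04 on the log2 scale over the 6 comparisons, miR-320a-3p by -0.45 to 0.22 and miR-484 by -0.68 to -0.08. These features set the factors, so small changes here are partly built in. Other miRNAs that are summed into the same reference features were less steady. miR-1224-5p changed by -0.35 to 0.78, and miR-1226-3p by 0.85 with wild type against the empty plasmid. Against the empty plasmid miR-320d changed by 1.73, 2.15 and 2.39 (wild type, m4, belt deletion). The abundant DROSHA-dependent miR-21-5p, used as a check of the labels, went from 2052 ± 364 (SD, n = 3) with the empty plasmid to 80950 ± 29538 with wild type. All 7 colon markers had reads: miR-21-5p, miR-200c-3p (885 in all), miR-31-5p (414), miR-192-5p (138), miR-215-5p (44), miR-141-3p (24) and miR-194-5p (14). Of the markers of other cells, miR-142-3p and miR-223-3p of immune cells and miR-124-3p of neurons had no read. miR-145-5p of smooth muscle had 8 reads, and miR-150-5p, miR-451a and miR-142-5p of immune cells had 7, 3 and 1. Others held more: miR-126-3p of endothelium (2577 reads), miR-143-3p of smooth muscle (1839), miR-122-5p of liver (772) and miR-9-5p of neurons (649). Among these, miR-9-5p and also miR-126-3p rose with all 3 DROSHA forms against the empty plasmid. miR-126-3p had mean scaled reads of 9.44, 393, 150 and 404 (empty, wild type, m4, belt deletion), and miR-9-5p 20.2, 69.1, 71.9 and 72.1. With m4 against wild type miR-126-3p fell, by 1.39 on the log2 scale, while miR-9-5p did not pass the test (0.06). The part of these markers in the results was not tested.

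Of the 14822 reads of all members, 97.3% stood under miR-378a-3p and miR-378c. The 3 members miR-378a-3p, miR-378c and miR-378d passed the filter on low counts and were tested. The other 5 held 76 reads together and were not tested.

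miR-378a-3p, the strand to which most functions of the family have been assigned, was high with wild type and the belt deletion, with a lowest library at 986 scaled reads, and low with m4 or no DROSHA plasmid, with a highest library at 163. With the empty plasmid it held 76, 59 and 68 reads in replicates 1, 2 and 3, or 57.2, 41.0 and 45.1 scaled reads. With wild type it held 1333, 1070 and 875 reads, or 1585, 1925 and 986 scaled reads. With m4 the reads were 86, 145 and 127 and the scaled reads 92.3, 134 and 163. With the belt deletion the reads were 1695, 1349 and 1371 and the scaled reads 1491, 1692 and 1170. The wild type and belt deletion libraries overlapped, all 6 stood above the m4 libraries, and every m4 library was above every empty one. In bulk RNA a change of the RNA per cell and a change in the share of cells that took up the plasmid cannot be told apart.

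miR-378c, the copy on chromosome 10, had the same order of groups at a lower count. It held 52, 45 and 47 reads with the empty plasmid, or 39.1, 31.3 and 31.2 scaled reads. With wild type it held 996, 858 and 673 reads, or 1184, 1543 and 758 scaled reads. With m4 it held 69, 89 and 90 reads, or 74.0, 82.2 and 115 scaled reads, and with the belt deletion 1219, 1011 and 1014 reads, or 1072, 1268 and 865 scaled reads. As for miR-378a-3p, the only groups that overlapped were wild type and the belt deletion.

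**Figure D1:**
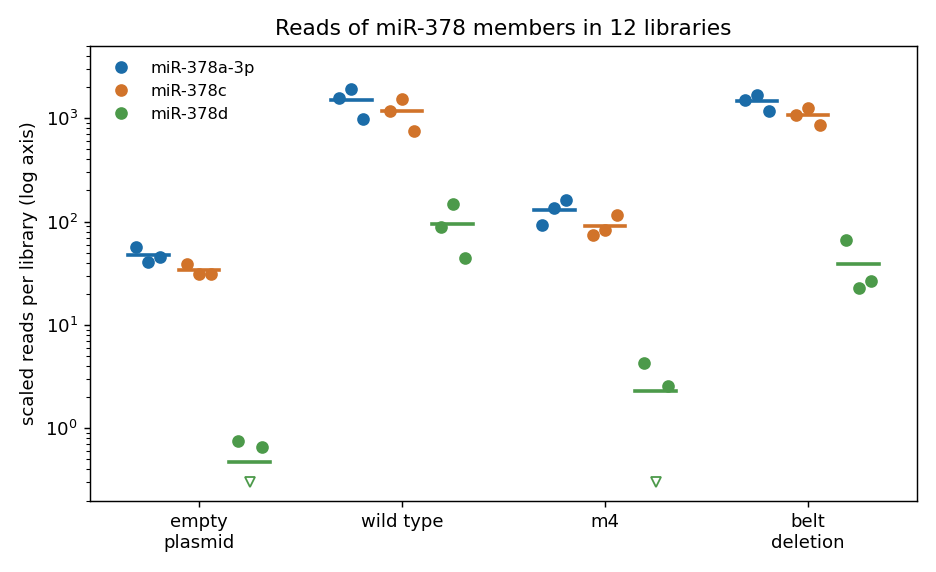
Scaled reads (log axis) of miR-378a-3p, miR-378c and miR-378d in each of the 12 libraries by group; points are libraries in the order of their replicate number, bars are group means and open triangles mark libraries with no read. miR-378a-3p lies between 986 and 1925 with wild type and the belt deletion, and between 41.0 and 163 with the empty plasmid and m4.

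The first comparison, wild type with the empty plasmid, asks how the family changes when DROSHA is supplied. Both abundant members rose. miR-378a-3p rose 31.3-fold (log2 change 4.97, SE 0.38), from 47.8 ± 8.38 to 1499 ± 475 scaled reads (SD, n = 3). Its adjusted p was 3.9e-20 in edgeR's quasi-likelihood test with Benjamini-Hochberg adjustment over the 310 miRNAs tested, as for every adjusted p below. miR-378c rose 34.2-fold (5.10, SE 0.38, adjusted p = 1.74e-20), from 33.9 ± 4.54 to 1162 ± 393. Of all miRNAs tested 42.6% rose and 0.645% fell in this comparison, and the median change was 0.72. The 2 members were 38th and 33rd from the top of the 310 log2 changes.

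Wild type values depended on the scaling more than on any library. miR-378a-3p changed by 4.15 under TMM, 4.19 with the size factors of DESeq2 and 4.14 with total counts, while scaling to summed reference reads gave 5.40, and the call held under all of them. The first 3 scalings moved the median of all miRNAs by -0.80, -0.76 and -0.82 and turned the split of calls from 132 higher and 2 lower to 125 and 88, 125 and 87, and 123 and 71. Summed reference reads moved the median by 0.39 the other way, with 137 higher and 1 lower. Relative to that median, miR-378a-3p stood 4.22 to 4.29 higher under the main scaling and the 5 alternatives.

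With m4 both abundant members also rose. Against the empty plasmid miR-378a-3p rose 2.71-fold to 130 ± 35.3 scaled reads (1.44, SE 0.33, adjusted p = 0.000239). miR-378c rose 2.66-fold to 90.5 ± 21.8 (1.41, SE 0.34, adjusted p = 0.000319). Here 41.0% of miRNAs rose and 0.968% fell, and the median change was 0.83, so the members stood 0.61 and 0.58 above the median and ranked 119th and 123rd. Across the scalings the change of miR-378a-3p ranged from 0.86 (DESeq2 size factors) to 2.01 (sum of the reference), with the call kept, and its distance from the median from 0.58 to 0.61. The split of calls was 127 higher and 3 lower, against 90 and 15 with the size factors of DESeq2.

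With the belt deletion both abundant members rose as well. Against the empty plasmid miR-378a-3p rose 30.3-fold to 1451 ± 263 scaled reads (4.92, SE 0.38, adjusted p = 7.25e-20), and miR-378c rose 31.5-fold to 1068 ± 201 (4.98, SE 0.37, adjusted p = 3.84e-20). In this comparison 42.9% of miRNAs rose and 0.323% fell, with a median of 0.73, and the members ranked 31st and 29th. The 3 comparisons above share the empty libraries, so their values are set side by side only. The change of miR-378a-3p was 4.12 under TMM, 4.12 with the size factors of DESeq2 and 4.15 with total counts, and the calls were 114 higher and 47 lower, 113 and 45, and 109 and 33, in place of 133 and 1. Scaling to summed reference reads gave 5.17.

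The mutants were then compared with wild type directly. With m4, miR-378a-3p was 11.6-fold lower than with wild type (-3.53, SE 0.35, adjusted p = 6.72e-14), and miR-378c was 12.8-fold lower (-3.68, SE 0.35, adjusted p = 1.33e-14). Of all miRNAs 34.2% were called lower and 3.55% higher, and the median change was -0.19. miR-378a-3p had the 16th and miR-378c the 12th lowest change of the 310. With total counts as library sizes the median rose by 1.05 and the calls turned to 133 higher and 60 lower, while miR-378a-3p still fell by 2.48 on the log2 scale with its call. Under TMM and DESeq2 size factors the splits were 54 higher and 92 lower and 43 and 97, in place of 11 and 106. Relative to the median of all miRNAs miR-378a-3p stood -3.36 to -3.34 under the main scaling and all 5 others.

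With the belt deletion, miR-378a-3p did not pass the test against wild type (-0.05, 95% interval -0.67 to 0.58, adjusted p = 0.948). miR-378c did not pass either (-0.12, interval -0.74 to 0.50, adjusted p = 0.838). Of all miRNAs 3.23% were called higher and 9.35% lower, and the median was 0.04. The sign of the miR-378a-3p value turned under total counts (0.01), without wild type replicate 2 (0.17) and without belt deletion replicate 3 (0.09).

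The mutants differed from each other in both abundant members. miR-378a-3p was 11.2-fold higher with the belt deletion (3.48, SE 0.35, adjusted p = 1.81e-13) and miR-378c 11.8-fold higher (3.56, SE 0.35, adjusted p = 9.34e-14). They ranked 13th and 10th of 310, where 25.8% of miRNAs were called higher and 1.29% lower and the median was 0.14. With total counts the value of miR-378a-3p was 2.49, and the calls were 47 higher and 121 lower in place of 80 and 4. TMM gave 71 and 28 and DESeq2 size factors 74 and 14.

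**Figure D2:**
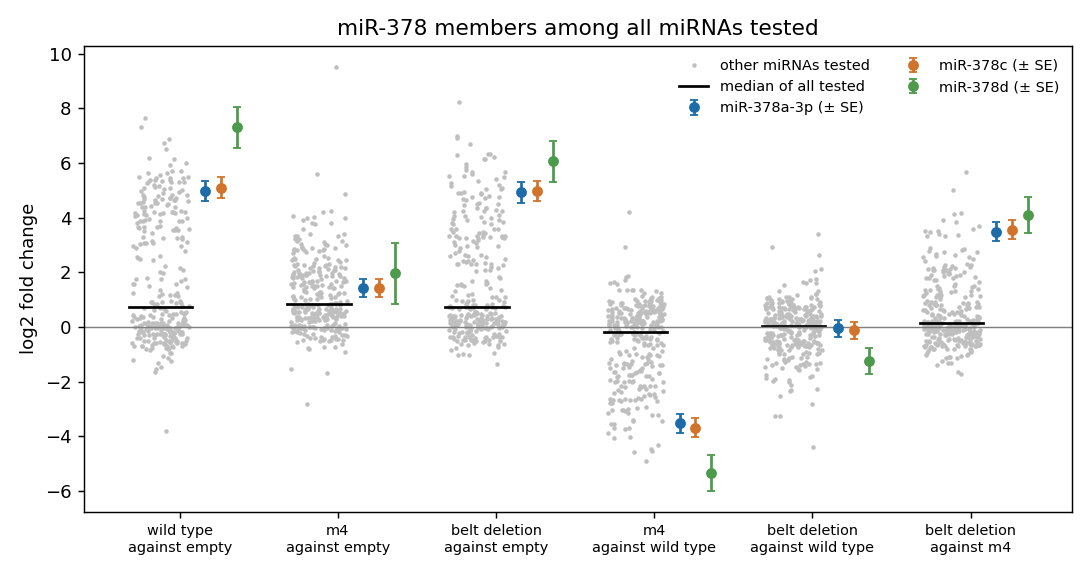
Log2 fold change of each of the 310 miRNAs tested in the 6 comparisons (grey points, spread sideways for visibility), the median of all tested (black bar) and the 3 tested miR-378 members with their SE. miR-378a-3p and miR-378c sit together in each comparison, from 5.10 at the highest to -3.68 at the lowest.

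How parallel the lines of the 2 abundant members run was measured within each library, where no size factor enters. miR-378c stood below miR-378a-3p in 12 of 12 libraries. There were 68.4, 76.3 and 69.1 miR-378c reads per 100 miR-378a-3p reads in empty replicates 1, 2 and 3. With wild type the ratios were 74.7, 80.2 and 76.9 per 100, with m4 80.2, 61.4 and 70.9, and with the belt deletion 71.9, 74.9 and 74.0. The 4 groups overlapped, with means of 71.3 ± 4.35, 77.3 ± 2.75, 70.8 ± 9.43 and 73.6 ± 1.54 (SD, n = 3) in the order above.

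Over all libraries the ratio was 74.7 per 100, and the 95% exact (Clopper-Pearson) interval of each of the 12 libraries held that value. Since that value comes from the same libraries, the intervals are no independent check of it. They were widest with the empty plasmid and m4, such as 47.1 to 98.6 in empty replicate 1. The log2 ratio, with 0.5 added to each count, had an SD of 0.11 over the 12 libraries. Counting error of 2 independent lines with these reads would give 0.18. The between-group spread of the log2 ratio was not called in an exact permutation test over all 369600 assignments of libraries to groups (p = 0.516), and ranged from p = 0.0655 without m4 replicate 1 to 0.780 without wild type replicate 2. Of the 6 pairwise differences the largest was m4 against wild type, -0.13 on the log2 scale (two-sided exact permutation p = 0.4, adjusted over the 6 pairs p = 0.6, where 3 against 3 cannot go below 0.1). From the pooled reads the miR-378c to miR-378a-3p ratio with m4 was 0.899 of that with wild type (95% interval 0.755 to 1.07), and with the belt deletion 0.953 of it (0.889 to 1.02). With wild type it was 1.09 of that with the empty plasmid (0.868 to 1.36). These intervals cover counting error only, since reads without molecular identifiers are not independent molecules.

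Whether a read could be counted on both lines is not given in the sources used here, and was not tested. Nor does the table show which reads extend past base 20, where the sequences part. The sum of all members except miR-378a-5p, which would count a shared read more than once, was therefore fitted only beside the single members. It changed by 5.06, 1.44 and 4.95 with wild type, m4 and the belt deletion against the empty plasmid, by -3.62 with m4 against wild type and by -0.11 with the belt deletion against wild type.

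**Figure D3:**
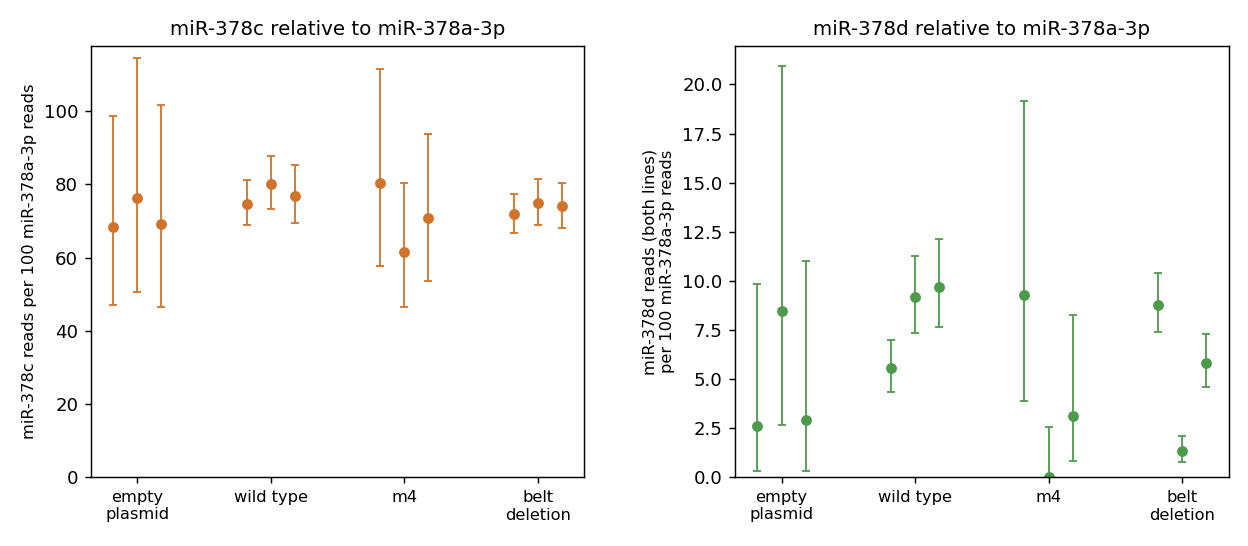
Reads of miR-378c (left) and of miR-378d, both lines summed (right), per 100 miR-378a-3p reads in each library, by group and in the order of replicate numbers; bars are 95% exact intervals for counting error. miR-378c lies between 61.4 and 80.2 per 100 in every library, while miR-378d lies between 0 and 9.71 per 100 and differs among libraries of 1 group.

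miR-378d, which is listed under the 2 hairpins mir-378d-1 and mir-378d-2, did not run in parallel in the same way. The mir-378d-2 line held 1, 0 and 1 reads in the empty plasmid group, 74, 83 and 39 in the wild type, 4, 0 and 2 in the m4 and 76, 18 and 31 in the belt deletion group. The mir-378d-1 line held 1, 5 and 1 reads in the empty plasmid group, 0, 15 and 46 in the wild type, 4, 0 and 2 in the m4 and 73, 0 and 49 in the belt deletion group. In wild type replicate 1 and belt deletion replicate 2 all reads stood under mir-378d-2, while in the m4 libraries and in empty replicates 1 and 3 both lines held the same number. Where 1 line held no read, as in wild type replicate 1, belt deletion replicate 2 and empty replicate 2, no read was counted on both. Whether the lines share reads in the libraries where both held some was not tested. If they do, their sum counts a read more than once.

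Per 100 miR-378a-3p reads, both lines together gave 5.55, 9.16 and 9.71 reads of miR-378d with wild type and 8.79, 1.33 and 5.84 with the belt deletion. The intervals of the 3 belt deletion libraries did not overlap, with 0.788 to 2.12 in replicate 2 and 7.38 to 10.4 in replicate 1. With wild type the interval of replicate 1 (4.33 to 7.02) lay below those of replicates 2 (from 7.37) and 3 (from 7.68). With m4 the values were 9.30, 0 and 3.15, where the interval of replicate 2 reached 2.58 and that of replicate 1 began at 3.89. With the empty plasmid they were 2.63, 8.47 and 2.94, with intervals that overlap. With both lines summed the ranges of the 4 groups overlapped. Fewer intervals were apart on the mir-378d-2 line alone. There belt deletion replicate 1 (3.52 to 5.64) still lay above replicates 2 (0.788 to 2.12) and 3 (1.53 to 3.22), which overlapped. The wild type intervals all overlapped (4.33 to 7.02, 6.13 to 9.70 and 3.15 to 6.14). So did those of m4 replicates 1 (1.24 to 12.3) and 2 (up to 2.58).

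On the mir-378d-2 line, which held the most reads and entered the fit, miR-378d rose with wild type (adjusted p = 2.42e-10) and with the belt deletion (adjusted p = 2.55e-08) against the empty plasmid. This line passed the filter on low counts only through the wild type and belt deletion libraries. Its direction against the empty plasmid and m4 was therefore partly set by the filter, and these tests are no independent support for it. Since the empty libraries held 2 reads in all, the size is given as the ratio of pooled scaled reads, 183 with wild type (95% counting interval 50.1 to 1525) and 86.0 with the belt deletion (23.3 to 718). With both lines summed, where the empty libraries held 9 reads, the ratios were 53.4 (27.7 to 118) and 37.8 (19.6 to 83.6). m4 against the empty plasmid did not pass (6 reads against 2, ratio 4.59, interval 0.820 to 46.5, adjusted p = 0.177), but passed without m4 replicate 2 (adjusted p = 0.0208).

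On that line miR-378d was lower with m4 than with wild type (-5.34, SE 0.65, adjusted p = 3.78e-08), and the belt deletion exceeded m4 (4.09, SE 0.66, adjusted p = 7.38e-06). Both sizes rest on 6 reads in the m4 libraries, and the filter favoured both directions. The first was -6.26 without m4 replicate 1 and -4.69 without m4 replicate 2. The second was 5.01 and 3.44 without the same libraries, and 3.43 without belt deletion replicate 1, and each call held. The belt deletion against wild type gave -1.25 (SE 0.46, adjusted p = 0.0761), with libraries at 66.9, 22.6 and 26.4 scaled reads against 88.0, 149 and 43.9, which overlap. This value passed the test when only these 6 libraries were fitted (adjusted p = 0.0117) and with the repeat number as a block (adjusted p = 0.0221). It shrank to -0.68 with both lines summed, and was -1.91 without belt deletion replicate 1 and -0.76 without wild type replicate 2.

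The remaining members were near the limit of detection. miR-378f held 37 reads in 10 libraries: 2, 0 and 0 reads in the empty plasmid group, 8, 6 and 1 in the wild type, 1, 3 and 1 in the m4 and 7, 5 and 3 in the belt deletion group. miR-378e held 9 reads, of which 7 were in the 3 belt deletion libraries (1, 3 and 3), 1 was in wild type replicate 3 and 1 in m4 replicate 2. miR-378i held 5 reads, 3 and 1 in belt deletion replicates 1 and 2 and 1 in m4 replicate 3. The single read of miR-378h was in empty replicate 3. Differences between groups were not detectable at this depth for miR-378h and miR-378i.

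miR-378a-5p, the other strand of the miR-378a hairpin and the one first given the name miR-378, held 24 reads in all. These were 2, 0 and 0 reads in the empty plasmid group, 6, 3 and 2 in the wild type, 0, 1 and 1 in the m4 and 4, 1 and 4 in the belt deletion group. The 3p strand made up 99.1% ± 1.48 of the reads of both strands in the empty plasmid group, 99.7% ± 0.115 in the wild type, 99.5% ± 0.426 in the m4 and 99.8% ± 0.113 in the belt deletion group (SD, n = 3). The groups overlapped, and 3 libraries (empty replicates 2 and 3 and m4 replicate 1) held no 5p read. The exact permutation test over the 4 groups gave p = 0.958, and 0.214 to 0.988 when single libraries were left out. If miR-378c reads were also counted under miR-378a-3p, this share would be too high. That was not tested.

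The miRNAs whose lines run most like that of miR-378a-3p were ranked by the SD over the 12 libraries of their log2 ratio to it, among the 132 miRNAs that held 10 or more reads in each of them. miR-378c ranked 1st (SD 0.11), against a median SD of 2.25. If reads were counted on both lines, its SD would be too low, which was not tested. miR-21-5p, an abundant miRNA of colorectal tumours, was next at 0.19, followed by miR-26a-5p (0.37), miR-103a-3p (0.41), miR-107 (0.44) and let-7i-5p (0.53). The DROSHA-independent miR-877-5p, miR-320a-3p and miR-484 ranked 80th, 97th and 122nd, with SDs of 2.31, 2.37 and 2.46. This is a description of 12 libraries that share their groups, and low counts add to the SD of rare miRNAs. miR-103a-3p and miR-107 stood close to each other in each library, such as 16.5 and 15.0 scaled reads in empty replicate 1 and 750 and 698 in wild type replicate 2. Whether these 2 share reads was not tested.

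The group values of these neighbours differ from those of miR-378a-3p in part. With m4 against the empty plasmid miR-378a-3p rose by 1.44 and miR-26a-5p by 1.56, while miR-21-5p rose by 1.86, miR-103a-3p by 2.26 and miR-107 by 2.35. With wild type against the empty plasmid the same miRNAs rose by 4.97, 4.69, 5.30, 5.31 and 5.37. let-7i-5p rose by 6.13 with wild type and 1.80 with m4. Whether these changes differ between miRNAs was not tested.

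**Figure D4:**
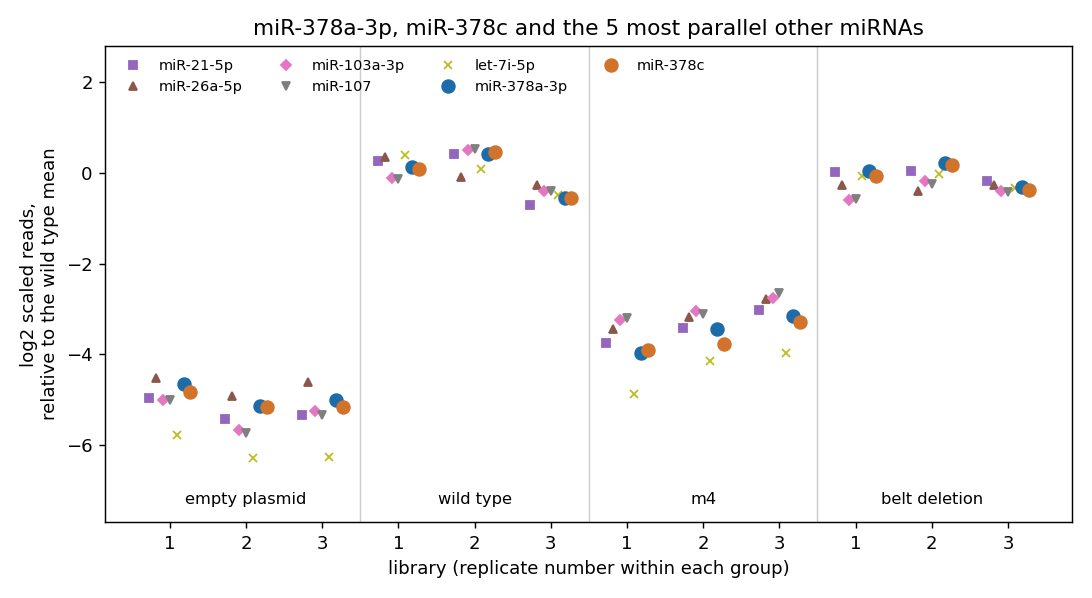
Log2 scaled reads of miR-378a-3p, miR-378c and the 5 most parallel other miRNAs in each library, relative to the mean of the log2 values in the wild type libraries; vertical lines part the 4 groups. miR-378a-3p and miR-378c lie close together in each library, and let-7i-5p lies lowest in the empty and m4 libraries.

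Like miR-378a, several miRNAs lie in introns of protein-coding genes. A list of 11 such miRNAs held 6 that could be tested, miR-26a-5p and miR-26b-5p of CTDSP genes, miR-103a-3p and miR-107 of PANK genes, miR-128-3p and miR-151a-3p. All 6 rose against the empty plasmid with each DROSHA form (wild type, m4, belt deletion), with medians of 4.66, 1.76 and 3.81. Of all miRNAs tested 42.6%, 41.0% and 42.9% rose in these comparisons. All 6 fell with m4 against wild type (median -3.04), where 34.2% of all miRNAs fell. With the belt deletion against wild type 3 of the 6 fell, miR-26b-5p (-2.82), miR-128-3p (-1.39) and miR-151a-3p (-1.37), with a median of -0.92, while miR-378a-3p stood at -0.05 and 9.35% of all miRNAs fell. Between the mutants 4 of the 6 were higher with the belt deletion (median 2.32), beside 25.8% of all miRNAs. These were miR-26a-5p, miR-103a-3p, miR-107 and miR-151a-3p. The medians over all miRNAs tested were 0.72, 0.83, 0.73, -0.19, 0.04 and 0.14 in the same order. miR-33a and miR-33b, of introns of the SREBF genes, held at most 5 reads per strand. Whether miR-103a-3p and miR-107 share reads was not tested, so the 6 may not be independent.

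Muscle, in which miR-378a-3p is abundant, was checked as another source of the family. Of 8 muscle miRNAs none passed the filter. miR-133a-3p, miR-133b, miR-206, miR-208a-3p and miR-208b-3p had no read in any library, miR-1-3p had 3 reads and miR-499a-5p 7 in all. miR-486-5p, which blood cells also contain, had 36.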

How the data were processed

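Small RNA libraries of 4 groups of 3 were analysed from 1 table. The authors deposited unnormalised counts for each pair of miRNA and hairpin. Cutadapt, Bowtie2 and hg38 are named, without versions, per the submitters' processing notes. The counter, the miRNA annotation and the handling of multi-mapping reads are not given in the sources used here. Per the labels' protocols, a 15% gel served to select 19 to 24 nt RNA out of 10 µg. Blank cells (7220 of 16908, with no cell at 0) were read as 0.

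For a mature name with several lines the line of most reads was kept. Names with the same reads per library (tolerance 5 reads or 5%) were merged, in 9 pairs, leaving 1277. Size factors were the median ratio over DROSHA-independent hairpins with at least 20 reads in every library. edgeR 4.0.16 (R 4.3.3; quasi-likelihood, robust) was fitted to all 12 libraries without covariates after filterByExpr, with calls at an adjusted p under 0.05. The SE was computed from the log2 change and F. The fit was tested on simulated data. Ratios and strand shares were compared by exact permutation. Alternatives were other scalings, DESeq2 1.42.0, no filter, other handling of lines, the 2 groups alone, a block for the repeat number and leaving out each library. Sequences came from RefSeq, positions from GENCODE 29 and folds from RNAfold 2.7.2. All members are described; other named miRNAs are the 5 with the smallest SD of the log2 ratio to miR-378a-3p, reference miRNAs and members of listed groups. Members and lists were chosen with earlier results of these data known.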

Additional observations from a re-analysis of the deposited data

How the results depend on the processing

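The calls of miR-378a-3p, miR-378c and the family sum kept their direction and their side of the threshold under all 22 alternatives in 5 of the 6 comparisons. In the sixth, belt deletion against wild type, none was called under any alternative, and signs turned. miR-378a-3p went from -0.05 to 0.0099 under total counts and ranged from -0.27 to 0.17 when single libraries were left out. The ranges were -0.35 to 0.14 for miR-378c and -0.34 to 0.14 for the family sum. The positive values arose without wild type replicate 2 (0.17, 0.14 and 0.14) and without belt deletion replicate 3 (0.09, 0.01 and 0.03). miR-378d for belt deletion against wild type (-1.25) was called when the 2 groups were fitted alone (-1.25) and with the replicate block (-1.32), and ranged from -1.91 to -0.76 when single libraries were left out, with calls without empty replicate 1, wild type replicate 3, m4 replicate 2 or belt deletion replicate 1. For m4 against the empty plasmid its value ranged from 1.05 to 2.61 when single libraries were left out, and was 1.02 with both lines summed. With these 2 groups alone it was not tested there, being under the filter. The replicate block changed no other call of a member. Of pairs of libraries with the same number, 2 of 18 had a correlation of their deviations from the group mean over 0.1 (range -0.25 to 0.13). For pairs of different number it was 12 of 36 (range -0.32 to 0.42). Deviations from a group mean depend on each other, so these correlations cannot decide whether the numbers pair the libraries. The count of miRNAs called went from 134 to 213 (TMM) and 212 (DESeq2 size factors) for wild type against the empty plasmid. Under total counts it went from 117 to 193 for m4 against wild type and from 84 to 168 for belt deletion against m4. The cause of these shifts was not tested. With at least 50 reads in every library, 3 of the 5 most parallel miRNAs were the same, and miR-378c (45 reads at the lowest) was not among those ranked. Depth limits the 5 rarest members and the ratio of miR-378c to miR-378a-3p in the empty and m4 libraries, where intervals were widest.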
